A study of Mus musculus with 24 samples.

Results

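The cyclins, cyclin-dependent kinase (Cdk) inhibitors and Gadd45 genes that steer the entry of a cell into division were measured in the liver of 24 male C57Bl6J mice with 1 Agilent one-colour expression array per mouse. The members were the 10 genes Ccnd1, Ccnd2, Ccnd3, Ccne1, Ccne2, Cdkn1a, Cdkn1b, Gadd45a, Gadd45b and Gadd45g, found as the 18 probes whose gene name in the scanner output was exactly one of these, of 37074 gene names and 56605 probes on the array. Of the 18 probes, 14 passed the filter on dim probes, and they covered 9 of the 10 genes. The cyclin E2 gene Ccne2 had 1 probe, which was well above background on 0 of 24 arrays, and it was not tested.

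The reference group was 9 mice of the lineage given the control fatty acid (oleic acid) and a standard, low-fat diet. The HFoleic group was 8 mice of the same lineage on a high-fat diet. The HFepa group was 7 mice of the n-3PUFA lineage, bred over generations with eicosapentaenoic acid (EPA), on the high-fat diet. The mice had been killed while fasting, and their age is not given in the labels. The EPA lineage had no group on the low-fat diet, so diet and lineage cannot be told apart in HFepa against reference, and the comparisons of HFoleic and HFepa with the reference share the same 9 control arrays.

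D-type cyclins bind Cdk4 and Cdk6 in response to growth signals, and E-type cyclins bind Cdk2 at the start of DNA synthesis. The inhibitors p21 (Cdkn1a) and p27 (Cdkn1b) restrain these kinases, and p21 is the classical target of p53. The Gadd45 proteins are small stress sensors that bind p21 and the kinase Map3k4. Most hepatocytes of an adult liver are at rest, and in that organ Ccnd1, Cdkn1a and the Gadd45 genes are known to respond to injury, fasting and nutrients.

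The probes of the called members are identified here by their first 30 bases, 5′ to 3′, as given in the scanner output. Probes 1 and 3 of Ccnd3 overlap on the genome (chr17:47736579-47736638 and chr17:47736572-47736631, mouse build mm9) and share most of their sequence, so they are not independent readings of the gene, whereas probe 2 lies at chr17:47732637-47732696.
Cdkn1a, chr17:29237377-29237436: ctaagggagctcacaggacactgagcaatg
Gadd45b, chr10:80394367-80394426: ctatatctctctagaggaacgctgagaccc
Gadd45a, chr6:66985376-66985435: aagggacaaaaactacaaagcactgcaaga
Ccnd3, probe 1: caaggtttgggctggtggcccatttctatc
Ccnd3, probe 2: agctgctgtcactcctgtggtttgggaagt
Ccnd3, probe 3: cgggccacaaggtttgggctggtggcccat
The Cdkn1a, Gadd45b and Ccnd3 probes read the plus strand and the Gadd45a probe the minus strand. An annotation of build mm9 was not used here, so whether a probe lies in coding or untranslated sequence is not given.

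The upstream sequence of 7 of the 10 members was found in the RefSeq promoter table (GRCm38.p6), with 9 windows in all. Windows of 250 bases that end just before the start are shown for the called members, because these genes moved in different directions, and for Gadd45g, because its window holds the same pair of motifs as that of Gadd45b. Capitals mark matches, on either strand, to the E-box CACGTG, the FoxO element GTAAACA and the cAMP response element TGACGTCA. They also mark such matches to the GC box GGGCGG, the TATA box TATAAA and a pattern for the p53 response element, described below the sequences.
Cdkn1a, upstream start, chr17:29090729-29090978, plus strand: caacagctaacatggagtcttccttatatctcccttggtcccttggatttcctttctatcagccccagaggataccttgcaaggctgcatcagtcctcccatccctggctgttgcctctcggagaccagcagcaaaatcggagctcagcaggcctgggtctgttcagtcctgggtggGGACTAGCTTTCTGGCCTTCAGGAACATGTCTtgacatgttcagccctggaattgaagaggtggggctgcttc
Cdkn1a, downstream start, chr17:29093519-29093768, plus strand: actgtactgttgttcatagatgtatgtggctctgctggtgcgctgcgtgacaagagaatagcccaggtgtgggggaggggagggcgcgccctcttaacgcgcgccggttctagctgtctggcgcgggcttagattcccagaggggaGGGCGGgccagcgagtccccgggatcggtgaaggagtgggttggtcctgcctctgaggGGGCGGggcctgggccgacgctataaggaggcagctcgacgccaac
Gadd45b, chr10:80929841-80930090, plus strand: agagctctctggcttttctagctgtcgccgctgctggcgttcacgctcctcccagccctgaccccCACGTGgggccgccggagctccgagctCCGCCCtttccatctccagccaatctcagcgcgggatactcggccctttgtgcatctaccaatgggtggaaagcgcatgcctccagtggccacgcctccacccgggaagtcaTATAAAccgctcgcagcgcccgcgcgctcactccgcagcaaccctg
Gadd45a, chr6:67037408-67037657, minus strand: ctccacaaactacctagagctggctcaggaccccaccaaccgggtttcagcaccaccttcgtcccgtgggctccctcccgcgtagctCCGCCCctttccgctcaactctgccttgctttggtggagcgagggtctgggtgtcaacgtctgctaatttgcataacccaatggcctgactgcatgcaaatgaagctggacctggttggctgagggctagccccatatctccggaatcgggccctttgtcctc
Gadd45g, chr13:51846425-51846674, plus strand: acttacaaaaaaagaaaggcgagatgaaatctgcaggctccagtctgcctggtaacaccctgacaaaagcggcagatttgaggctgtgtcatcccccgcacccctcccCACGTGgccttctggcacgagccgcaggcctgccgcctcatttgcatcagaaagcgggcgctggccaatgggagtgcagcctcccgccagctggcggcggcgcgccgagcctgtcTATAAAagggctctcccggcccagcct
Ccnd3, upstream start, chr17:47504801-47505050, plus strand: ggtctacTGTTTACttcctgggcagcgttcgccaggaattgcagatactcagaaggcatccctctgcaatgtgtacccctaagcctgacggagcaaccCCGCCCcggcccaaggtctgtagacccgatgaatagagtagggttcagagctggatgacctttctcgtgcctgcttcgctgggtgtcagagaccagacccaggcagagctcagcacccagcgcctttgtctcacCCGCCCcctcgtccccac
Ccnd3, downstream start, chr17:47593217-47593466, plus strand: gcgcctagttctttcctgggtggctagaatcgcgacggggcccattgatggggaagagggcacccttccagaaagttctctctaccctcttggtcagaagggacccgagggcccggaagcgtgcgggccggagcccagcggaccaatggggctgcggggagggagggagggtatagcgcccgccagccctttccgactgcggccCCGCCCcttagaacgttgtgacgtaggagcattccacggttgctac

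A match to the p53 response element pattern began 73 bases before the upstream start of Cdkn1a. It joins GGACTAGCTT to GAACATGTCT across a gap, and each fits RRRCWWGYYY. In these letters R is A or G, W is A or T and Y is C or T. The bases right after the match, TGACATGTTC, differ from RRRCWWGYYY at the first base and were not marked. A match to the pattern was found in 21 of 32851 windows of the table (0.0639%). Its position and share are those of this strict pattern only. The window before the downstream Cdkn1a start held GC boxes only, at 104 and 46 bases before it. Gadd45b and Gadd45g each held an E-box, at 185 and 142 bases before the start, and a TATA box, at 46 and 27 bases. The Gadd45b window also held a GC box, at 158 bases, and the Gadd45g window held none. An E-box was present in 6.02% and a TATA box in 12.4% of all windows. The Gadd45a window held a single GC box, at 163 bases, a motif present in 32.7% of all windows. The window before the upstream Ccnd3 start held a FoxO element at 243 bases (3.17% of all windows) and GC boxes at 152 and 18 bases before it, and the window before the downstream Ccnd3 start held a GC box only, at 46 bases. The cAMP response element, present in 1.55% of all windows, was in none of the 9 member windows. These matches are descriptions of the letters and not of binding.

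Between 28804 and 34432 probes per array were well above background (50.9% to 60.8%), and 0 spots were saturated. Reference replicate 5 stood apart, with a median correlation of 0.976 with its group, and it had the highest summed level of bile duct (13.4 on the log2 scale), stellate cell (15.9) and adipocyte markers (14.6) of the 24 arrays. Results that rest on it are given with and without it. The 7 hepatocyte markers were all measured, with a summed level of 19.8 to 19.9 on every array. The summed adipocyte markers had medians of 13.2 in reference, 11.7 in HFoleic and 12.1 in HFepa on the log2 scale, with 4 of 5 markers tested, Adipoq not tested, and only Cidec, a lipid droplet gene that hepatocytes also express, called in HFoleic against reference (-1.72, limma adjusted p = 0.0243). In a bulk tissue, fewer cells of a type and less RNA per cell cannot be told apart.

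Mice of the oleic lineage on the 2 diets were compared first (HFoleic against reference), to see the response of the members to high-fat feeding. Cdkn1a, Gadd45b and Ccnd3 were lower and Gadd45a was higher in HFoleic, at limma's adjusted p under 0.05. The call held for 6 of the 14 tested probes, where 7.23% of all 30003 tested probes were called, and for 4 of the 9 tested genes (44.4%), each read from its brightest probe, where 8.07% of 20192 genes were called. Of these genes, 1 was higher and 3 were lower in HFoleic (background 4.52% higher and 3.55% lower). The members were chosen with earlier results of these data known, so these shares are descriptions and not a test of the set. The median log2 difference was 0.01 over the 9 genes and -0.01 over all genes. The 9 genes and each mouse are shown in the plot of member levels.

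**Figure D1:**
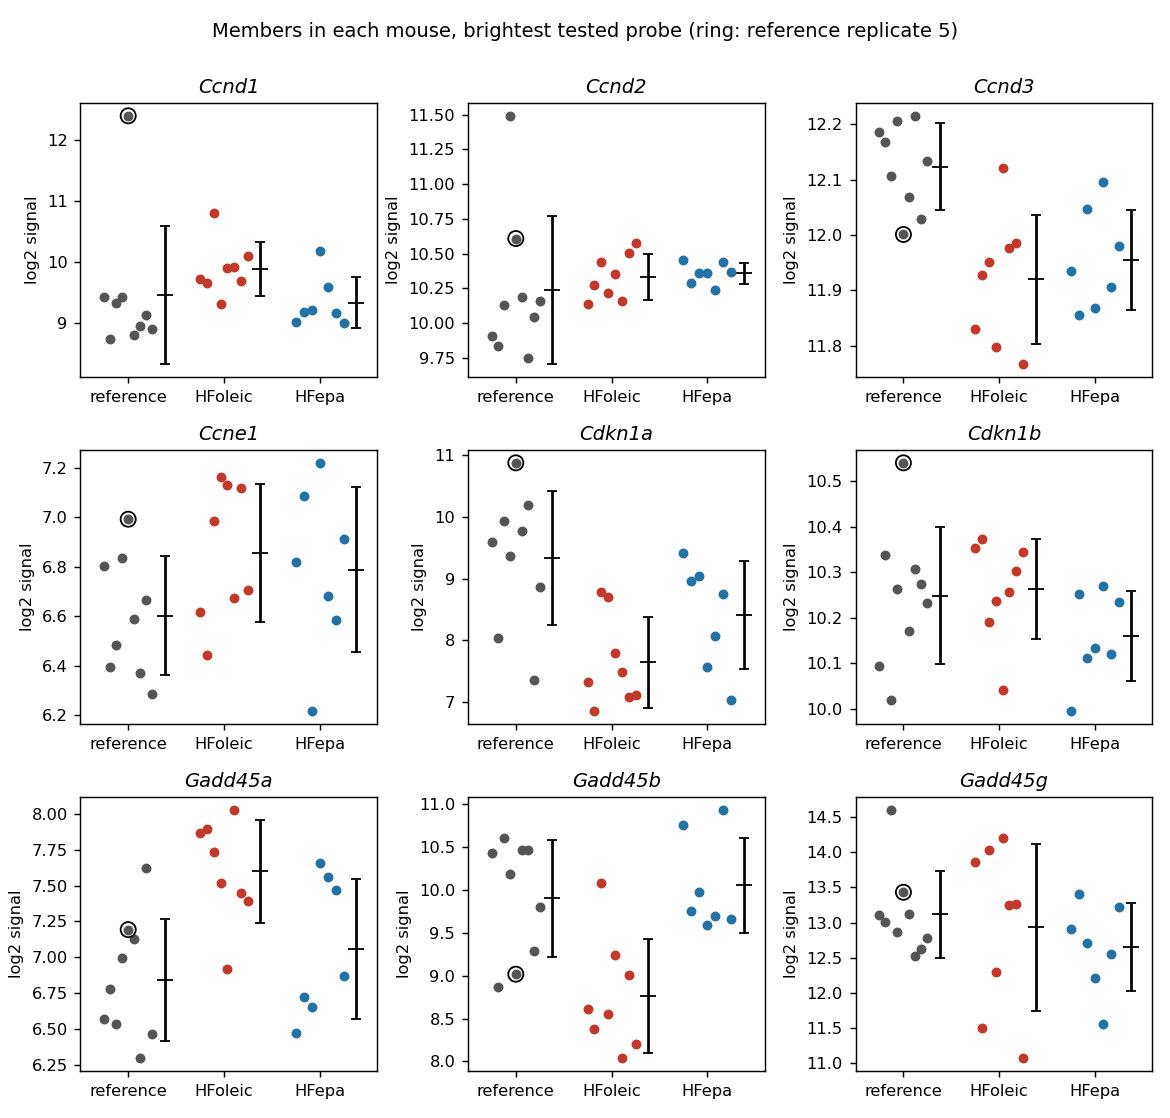
Log2 signal (y axis, quantile normalized) of the brightest tested probe of 9 genes in 9 reference, 8 HFoleic and 7 HFepa mice. Points are mice, the bar beside each group is its mean ± SD, and the ring marks reference replicate 5. Cdkn1a and Gadd45b lay lowest in HFoleic, Gadd45a lay highest there, and Ccnd1 reached 12.39 in the ringed mouse. The y axes differ between panels.

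The Cdk inhibitor Cdkn1a showed the largest difference among the members. Its log2 signal ranged from 7.36 to 10.88 in the reference mice (median 9.59), from 6.85 to 8.78 in HFoleic (median 7.40) and from 7.02 to 9.41 in HFepa (median 8.76). All 8 HFoleic mice were below the reference mean and 4 were below every reference mouse, but the groups overlapped because reference replicates 2 and 8 were low. Cdkn1a fell in HFoleic by 1.70 on the log2 scale (SE 0.42, 95% interval -2.56 to -0.83, n = 8 and 9), or 3.24-fold, with a limma adjusted p of 0.0134. The difference was -1.50 without reference replicate 5 (adjusted p = 0.0246) and -2.06, -1.96 and -1.13 within slides 1, 2 and 3. The 2 other Cdkn1a probes were too dim to test. One was well above background on 3 reference arrays and on 0 high-fat arrays. The other, which is assigned to a second transcript variant, was so on 3 reference arrays and 1 HFepa array.

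The stress sensor Gadd45b was also lower in HFoleic. Its log2 signal ranged from 8.87 to 10.60 in the reference mice (median 10.19), from 8.03 to 10.08 in HFoleic (median 8.58) and from 9.60 to 10.94 in HFepa (median 9.76). HFoleic replicate 3 was the highest of its group and lay among the reference mice, and reference replicates 2, 5 and 8 were the low mice of theirs. Gadd45b fell in HFoleic by 1.14 on the log2 scale (SE 0.29, 95% interval -1.74 to -0.54), or 2.20-fold, with a limma adjusted p of 0.0168. The difference was -1.25 without reference replicate 5 and -0.43, -1.51 and -1.49 within slides 1, 2 and 3. The methods' t-test gave an adjusted p of 0.0547.

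Gadd45a went the other way. Its log2 signal ranged from 6.30 to 7.62 in the reference mice (median 6.78), from 6.92 to 8.03 in HFoleic (median 7.63) and from 6.47 to 7.66 in HFepa (median 6.87). All 8 HFoleic mice were above the reference mean and 4 were above every reference mouse. Gadd45a rose in HFoleic by 0.76 on the log2 scale (SE 0.19, 95% interval 0.36 to 1.16), or 1.69-fold, with a limma adjusted p of 0.0168, and by 1.08, 0.43 and 0.61 within slides 1, 2 and 3. The size of the rise depended on the processing, from 0.66 to 1.05 over the 11 alternative settings. A second Gadd45a probe was well above background on 1 array only and was not tested. Gadd45g, the third gene of the family, spread widely in HFoleic, from 11.07 to 14.20 (median 13.26), against 12.53 to 14.60 in the reference mice (median 13.01). Its difference of -0.18 (95% interval -0.98 to 0.61, limma adjusted p = 0.844) did not pass the test.

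The D-type cyclin Ccnd3 was lower in HFoleic at all 3 of its probes, by much less. On the brightest probe the log2 signal ranged from 12.00 to 12.22 in the reference mice (median 12.13), from 11.77 to 12.12 in HFoleic (median 11.94) and from 11.86 to 12.10 in HFepa (median 11.93). Of the 8 HFoleic mice, 7 were below every reference mouse. The log2 differences were -0.20 (limma adjusted p = 0.0183), -0.33 (adjusted p = 0.0200) and -0.23 (adjusted p = 0.0489) at probes 1, 2 and 3. On the brightest probe the difference was -0.23, -0.19 and -0.19 within slides 1, 2 and 3. These are small differences, and on the signal processed by the scanner software none of the 3 probes was called (adjusted p 0.160, 0.0928 and 0.154). Probe 2, which does not overlap the others, also missed the threshold with normexp background correction (adjusted p = 0.0996) and with the methods' t-test (adjusted p = 0.0534). The call of probe 3 held in 2 of 11 alternative settings.

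The result for Ccnd1, the D-type cyclin best known from liver regeneration, rested on 1 mouse. Its log2 signal ranged from 8.74 to 12.39 in the reference mice (median 9.14), from 9.32 to 10.80 in HFoleic (median 9.81) and from 9.01 to 10.18 in HFepa (median 9.18). Reference replicate 5 stood at 12.39, and the next reference mouse was at 9.43. With all arrays the HFoleic difference was 0.43 (95% interval -0.29 to 1.15, limma adjusted p = 0.531). Without reference replicate 5 it was 0.80 and passed the test (adjusted p = 0.00882). The bile duct, stellate cell and adipocyte markers that were highest in the same mouse are given above, and their part in the result was not tested.

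The remaining cyclins and p27 did not pass the test. Ccnd2 differed by 0.10, 0.13 and 0.08 at its 3 probes (adjusted p 0.796, 0.674 and 0.809), and reference replicate 4 was the highest mouse at each of them. On its brightest probe Ccnd2 ranged from 9.75 to 11.49 in the reference mice but only from 10.13 to 10.58 in HFoleic and from 10.24 to 10.45 in HFepa. Without reference replicate 4 its difference was 0.25 (adjusted p = 0.106). Ccne1, a partner of Cdk2, differed by 0.25 (95% interval -0.02 to 0.52, limma adjusted p = 0.273). The p27 gene Cdkn1b had the narrowest interval of these genes, a difference of 0.01 (95% interval -0.12 to 0.14, limma adjusted p = 0.936) on its brightest probe. Its second probe differed by 0.07 (adjusted p = 0.732), with the value of 1 HFoleic array missing because the spot was marked as an outlier.

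**Figure D2:**
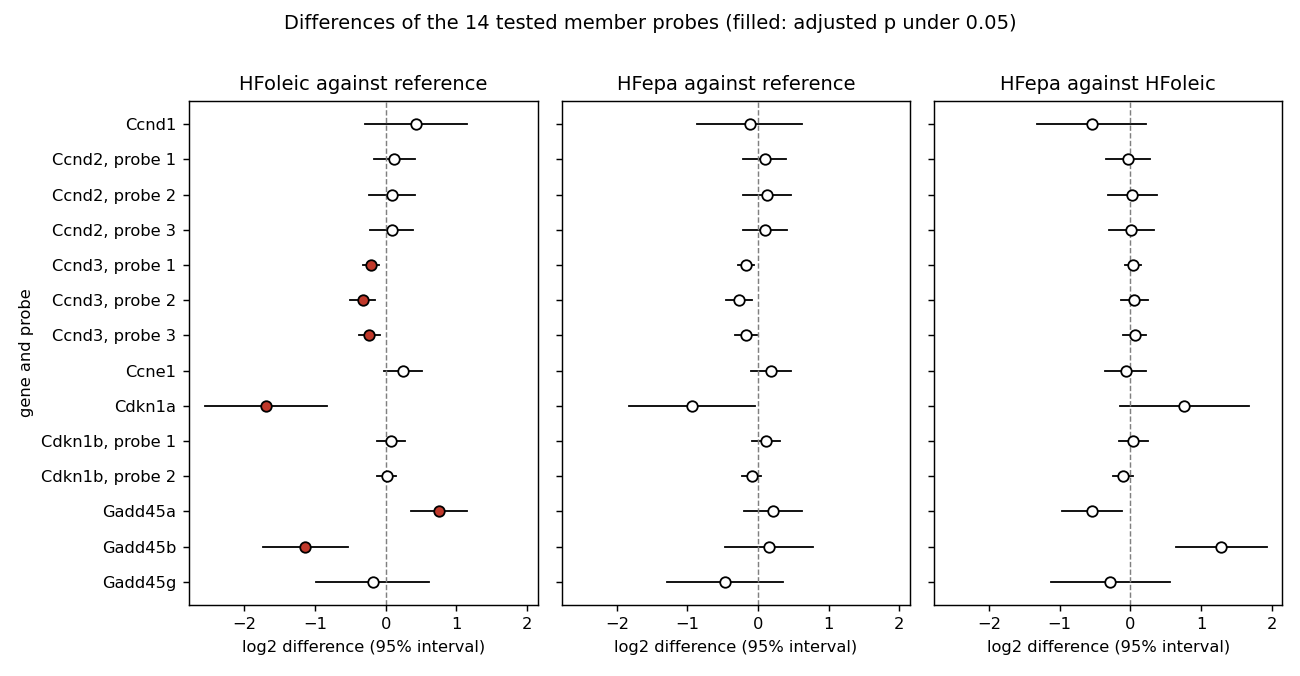
Log2 difference (x axis, with its 95% interval) of the 14 tested member probes (y axis) in the 3 comparisons. Filled points passed an adjusted p of 0.05 in limma. The 6 filled points all lie in HFoleic against reference. The Gadd45b interval in HFepa against HFoleic, 0.65 to 1.93, lies above 0 although its adjusted p was 0.161. Other open points with intervals that leave out 0 are Gadd45a in HFepa against HFoleic, and Cdkn1a and the Ccnd3 probes in HFepa against reference.

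The second comparison, HFepa against reference, showed no called member (0 of 14 probes), where limma called 0.393% of all probes and 0.391% of genes. By unadjusted p under 0.05, the fit gave 4040 of 30003 probes. Ccnd3 differed by -0.17, -0.27 and -0.17 at its 3 probes (adjusted p 0.155, 0.159 and 0.305). Their 95% intervals were -0.28 to -0.055, -0.46 to -0.09 and -0.33 to -0.02. On the brightest Ccnd3 probe all 7 HFepa mice were below the reference mean and 5 were below every reference mouse. Cdkn1a differed by -0.93 (95% interval -1.82 to -0.04, adjusted p = 0.346). Gadd45b differed by 0.15 (95% interval -0.47 to 0.77, adjusted p = 0.887) and Gadd45a by 0.21 (95% interval -0.20 to 0.63, adjusted p = 0.711). Gadd45g differed by -0.47 (95% interval -1.29 to 0.36, adjusted p = 0.675). The median over the 9 genes was -0.09.

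Both lineages on the high-fat diet were compared last (HFepa against HFoleic), to see how the members differed between the lineages. No member and no other probe was called by limma (0% of probes and 0% of genes, with 2910 of 30003 probes at an unadjusted p under 0.05). Gadd45b had the largest difference of the members, 1.29 on the log2 scale (95% interval 0.65 to 1.93, 2.45-fold). All 7 HFepa mice were above the HFoleic mean and 2 were above every HFoleic mouse. It ranked 63 of 30003 probes by p (limma adjusted p = 0.161), and the difference was 1.43, 1.35 and 1.09 within slides 1, 2 and 3. Gadd45a differed by -0.54 (95% interval -0.97 to -0.12, adjusted p = 0.379). Ccnd3 differed by 0.04, 0.06 and 0.06 at probes 1, 2 and 3 (adjusted p 0.891, 0.899 and 0.853). Cdkn1a differed by 0.77 (95% interval -0.15 to 1.68, adjusted p = 0.595), with 1.25, 1.37 and -0.46 within slides 1, 2 and 3. The levels of Cdkn1a were thus ordered reference, HFepa, HFoleic, and neither HFepa step passed the test. For Gadd45b, the mean of HFepa (10.06 ± 0.56 SD, n = 7) stood beside that of the reference (9.90 ± 0.68, n = 9), with HFoleic lowest (8.77 ± 0.67, n = 8). The medians of HFepa and reference were in the other order (9.76 and 10.19). Within slides 1, 2 and 3, HFepa differed from reference at Gadd45b by 1.005, -0.16 and -0.40, so the sign was not the same on each slide.

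**Figure D3:**
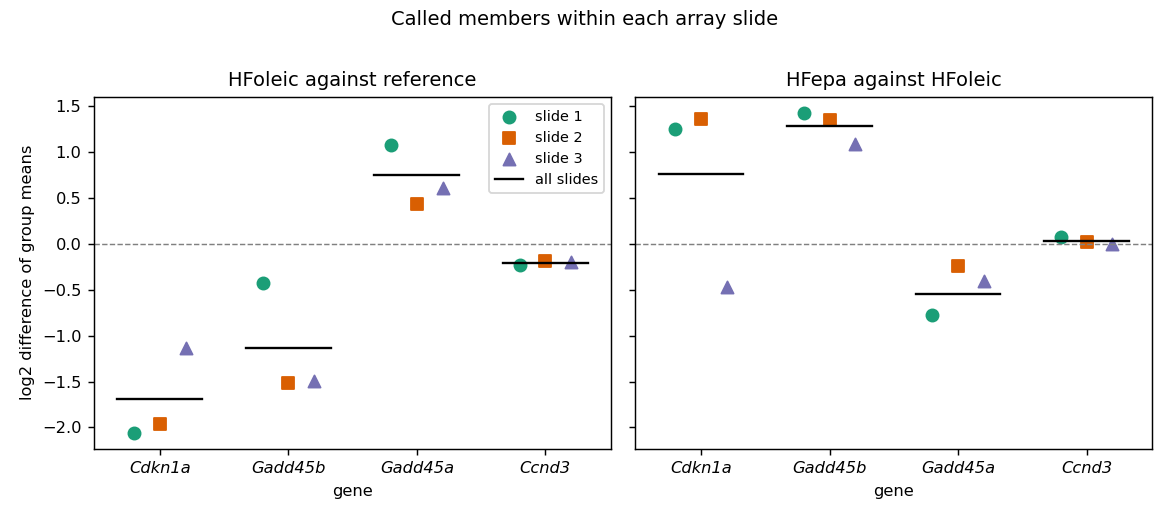
Log2 difference of group means (y axis) for the brightest probe of the called members (x axis), over all arrays (line) and within each of the 3 array slides (symbols). In HFoleic against reference each gene kept its sign on each slide. In HFepa against HFoleic, Gadd45b lay between 1.09 and 1.43 on the slides, and Cdkn1a was at -0.46 on slide 3.

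Genes that act with the members were read from their brightest probes. The ubiquitin ligase parts that degrade cyclins and p27 had 1 of 11 tested genes called in HFoleic against reference (9.09%), near the 8.07% of all genes. This was Cks1b, the cofactor with which Skp2 recognises p27. Its log2 signal ranged from 8.75 to 9.22 in the reference mice (median 8.97), from 9.36 to 9.99 in HFoleic (median 9.79) and from 8.93 to 9.59 in HFepa (median 9.29). The HFoleic and reference mice did not overlap, and Cks1b rose in HFoleic by 0.71 (1.63-fold, limma adjusted p = 0.000428), with a second probe also called (0.57, adjusted p = 0.0141). HFepa differed from HFoleic by -0.45 at Cks1b (adjusted p = 0.150).

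Of the partner kinases and other cyclins, 3 of 18 were called (16.7%, against 8.07% of all genes). Ccng1, a p53-induced cyclin, rose by 0.47 (adjusted p = 0.00881). Ccng2, a cyclin of resting cells that FoxO factors induce, fell by 0.42 (adjusted p = 0.0386, 1 of 2 probes called). Ccnf, the F-box cyclin, fell by 0.74 on its brightest probe (adjusted p = 0.0122), but its 2 other probes were not called and differed by 0.29 and 0.03, so the probes of this gene disagree in sign. None of the 5 other Cdk inhibitors tested was called (median -0.14), nor was any of the 17 tested genes of the p53 target list. That list did not hold Ccng1, which was counted with the cyclins above. The listed p53 targets ranged from -0.395 to 0.28 (median 0.02), with 9 above and 8 below 0. Among them were Mdm2 (-0.02, adjusted p = 0.931) and Bax (0.28, adjusted p = 0.144).

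Genes of DNA synthesis and mitosis were called in 2 of 19 cases, both higher. Tyms, which makes thymidylate, rose by 0.31 (adjusted p = 0.00852, 1 of 3 probes called), and Mcm4, a subunit of the replicative helicase, rose by 0.27 (adjusted p = 0.0174). The median over the 19 genes was 0.04. Of the Rb and E2F family, 1 of 13 was called, E2f6, which rose by 0.18 (adjusted p = 0.0426, 1 of 2 probes called). The other E2f6 probe differed by -0.01 (adjusted p = 0.958). Of the kinases of the Gadd45 pathway, 1 of 10 was called, Map3k4, which rose by 0.23 (adjusted p = 0.0162). In each of these lists the share called, at 7.69% to 10.5%, was near the background of 8.07%.

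Genes listed under fasting and the FoxO factors, which insulin restrains, were called lower in 7 of 13 cases and higher in 0. Of all genes, 3.55% were called lower. The list was chosen with earlier results of these data known, so this share is a description and not a test of the list. The median over the list was -0.54, and 3 of the 13 genes lay above 0. Pck1, the rate-limiting enzyme of gluconeogenesis, fell by 0.74 (adjusted p = 0.000602). Irs2, an adaptor of the insulin receptor, fell by 1.16 (adjusted p = 0.00169), and Igfbp1, a secreted binder of insulin-like growth factors, fell by 1.34 (adjusted p = 0.00344). Tat, a tyrosine-degrading enzyme that also served as a hepatocyte marker, fell by 0.63 (adjusted p = 0.00858). Asns, also among the 7, had the largest fall of the list, with a log2 difference of -1.67 (adjusted p = 0.00882). The part of these genes in the members' difference was not tested.

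Clock genes were read because their level depends on the hour of sampling. Of the clock genes of the Per phase, 1 of 11 was called (9.09%, near the 8.07% of all genes), Nr1d2, a repressor of the clock, which rose by 0.58 (adjusted p = 0.0100, 3 of 3 probes called), and the list's median was 0.42, with 10 of 11 genes above 0. The 5 genes of the opposite, Bmal1 phase had a median of -0.18 and 0 calls. The part of the hour of sampling in the members' differences was not tested. No gene of any of these lists was called by limma in HFepa against reference or in HFepa against HFoleic.

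**Figure D4:**
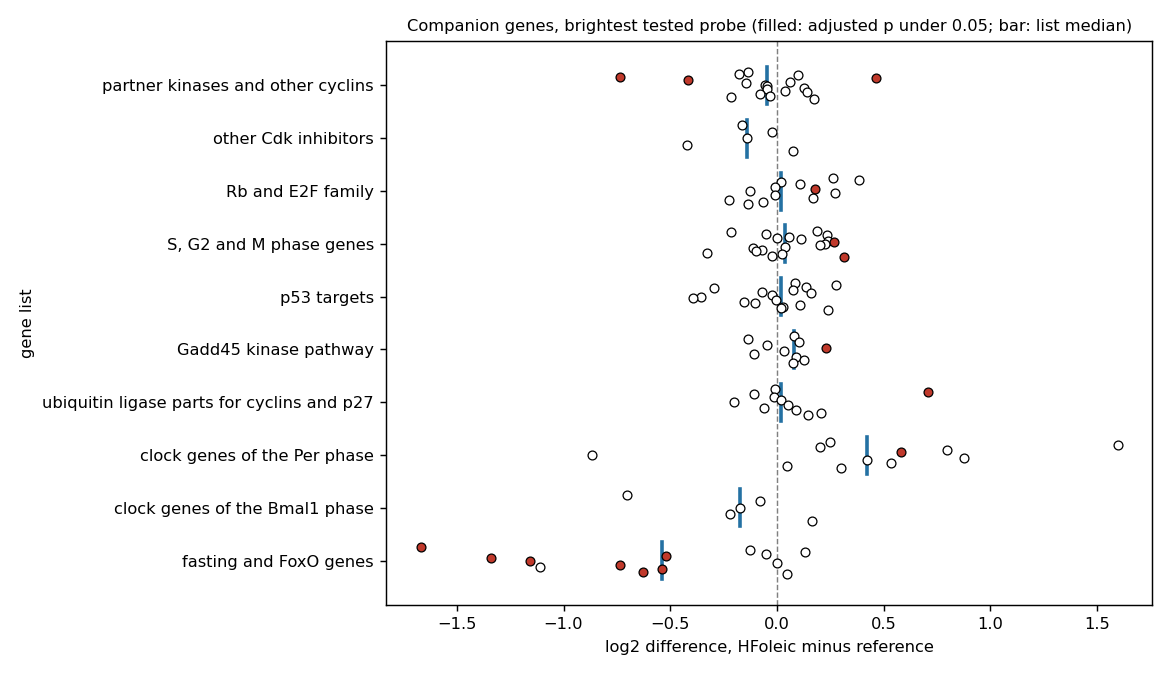
Log2 difference between HFoleic and reference (x axis) for the tested genes of 10 companion lists (y axis), each from its brightest probe. Points are genes, filled where the adjusted p was under 0.05, and the blue bar is the list median. The fasting and FoxO genes have 7 filled points, all below 0, and Cks1b is the filled point at 0.71 among the ubiquitin ligase parts.

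To see how the members varied among themselves apart from the groups, each mouse's log2 signal was centred on its group mean, and 36 pairs of the 9 genes were correlated over 24 mice, with 100000 permutations of mice within groups, two-sided. One pair passed after Benjamini-Hochberg adjustment over the 36 pairs. Cdkn1b and Gadd45b ran opposite to each other, with Pearson's r = -0.67 (permutation p = 0.00073, adjusted p = 0.0263) and Spearman's rho = -0.67 (permutation p = 0.00079, adjusted p = 0.0284). Without the 2 mice farthest from the Cdkn1b median, r was -0.61. With values also centred within slides, r was -0.74 (permutation adjusted p = 0.00252). The pair missed the threshold on the processed signal (r = -0.64, permutation adjusted p = 0.0756), without reference replicate 3 (r = -0.65, permutation adjusted p = 0.0619) and without HFepa replicate 1 (r = -0.65, permutation adjusted p = 0.0742).

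Cdkn1a and Gadd45b, which were both lower in HFoleic, also tended to be high in the same mice of a group, with r = 0.51 (permutation p = 0.0168, adjusted p = 0.245) and rho = 0.55 (permutation p = 0.00968, adjusted p = 0.174). Without the 2 mice farthest from the Cdkn1a median, r was 0.46. Reference replicate 5 held the highest Cdkn1a and a low Gadd45b of its group, and without it r was 0.72 (permutation adjusted p = 0.0122). The array chemistry and normalization are shared by all genes of a mouse, and their part in these correlations was not tested.

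**Figure D5:**
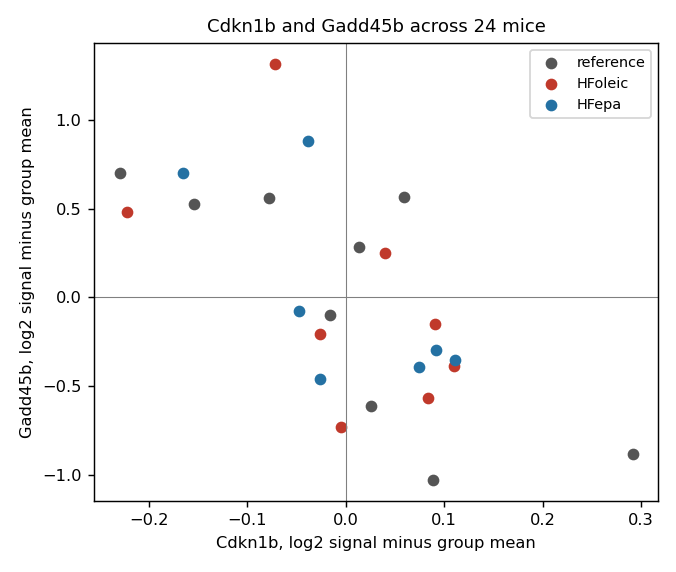
Gadd45b against Cdkn1b in 24 mice, each as log2 signal minus the mean of its group. Points are mice, coloured by group. Mice with a lower Cdkn1b had a higher Gadd45b, over a range of Cdkn1b that is narrow beside that of Gadd45b (r = -0.67).

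The genes whose group-centred signal followed a called member most closely were taken by Pearson's r over 24 mice among 19046 other genes, as a description. For Cdkn1a these were Mpzl1 (r = 0.863), Hilpda (0.821), which codes for a lipid droplet protein, and Rrp1 (0.801). For Gadd45b they were Cwc15 (0.863), Pcgf2 (0.845) and Ighmbp2 (0.841). For Gadd45a they were Tmem101 (0.751), a transcript that the array names only by its coordinates (0.746) and Il33 (0.745). For Ccnd3 the highest values were lower, at 0.702 for Gm17753, 0.697 for Gm973 and 0.683 for another transcript named by coordinates. Of the named genes, Mpzl1 was called in HFoleic against reference, with a log2 difference of -0.59 (limma adjusted p = 0.0454).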

How the data were processed

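RNA of 24 livers was hybridised in 1 colour (Cy3). The authors deposited the scanner output of each array (Agilent Feature Extraction 10.10.1.1), in which median signal, mean signal, background and processed signal are intensities, and a table of filtered, quantile-normalized log2 values of 32176 probes, used as an alternative. The filter behind it is not given in the sources used here. Outlier and above-background flags of a spot are coded 0 or 1, per the file headers. Groups came from the sample labels. Nothing states separate cages or litters, so p-values measure the spread between these mice.

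Spots flagged as outliers were dropped (134 to 627 per array) and the log2 median signal was averaged within a probe. A probe was kept if 75% or more of the arrays in 1 group showed it well above background (30003 of 56605), and values were quantile normalized. Limma 3.58.1 (R 4.3.3; lmFit, eBayes) was fitted to 24 arrays by group means, with two-sided tests and Benjamini-Hochberg adjustment within a comparison. The brightest tested probe stood for a gene. The number of arrays limits the precision. The fit was tested on simulated data. Files were read by data.table, version 1.17.8, and correlations and figures were made with numpy 2.4.6, scipy 1.17.1, pandas 2.3.3 and matplotlib 3.10.9 in Python 3.11.15.

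The members and companion lists were chosen with earlier results of these data known. The text names all members, up to 4 called genes per list and comparison, and the 3 genes most correlated with each called member. Genes named outside this rule are Mdm2, Bax and Asns, chosen after their values were seen, and Cidec among the markers. Marker lists of hepatocytes, macrophages, lymphocytes, stellate cells, endothelium, bile duct, red blood cells, exocrine pancreas, adipocytes and skeletal muscle were read. Apart from those given in the report, 1 lymphocyte marker (Cd4), 1 stellate cell marker (Lrat) and 1 bile duct marker (Sox9) were called in HFoleic against reference, and 0 of the macrophage, endothelial, red blood cell, pancreas and muscle markers. Alternatives were the deposited table, the processed signal scaled to its 75th percentile, normexp background correction (offset 50), other filters, median centring, slide, slide row or replicate number as a block, the methods' t-test, only the compared groups, and each array left out.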

Additional observations from a re-analysis of the deposited data

Results flagged for a closer look

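5 member values lay far from the other mice of their group by Dixon's criterion, of 42 groups of values checked, where about 2.1 would be flagged by chance. Ccnd1 stood at 12.39 in reference replicate 5 on the log2 scale, with the next reference mouse at 9.43. Ccnd2 stood at 11.49 on its brightest probe and at 8.70 on a second probe in reference replicate 4, with the next reference mouse at 10.61 and 7.73. The same gene on a further probe was lowest in HFepa replicate 5, at 8.68, with the next HFepa mouse at 8.95. Gadd45g stood at 14.60 in reference replicate 3, with the next reference mouse at 13.43. The Ccnd2 probes read the same gene in the same mice and are not independent.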

How the results depend on the processing

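Of the called members, Cdkn1a and Gadd45a remained called under all 11 alternative settings (adjusted p up to 0.0427 and 0.0403) and without any single array (up to 0.0298 and 0.0362). Gadd45b was called in all of these (up to 0.0395 without an array) except the methods' t-test (0.0547), and the brightest Ccnd3 probe in all but the processed signal (0.160), median centring (0.125) and the replicate block (0.0508). Probe 2 of Ccnd3 lost its call by processed signal (0.0928), normexp (0.0996) and the methods' t-test (0.0534). Probe 3 of Ccnd3 lost its call when any 1 of 17 arrays was left out. The member probes called in HFoleic against reference were 3 by processed signal and 3 by the methods' t-test, and 5 to 7 with an array left out. Replicate numbers did not pair the mice (r of same-numbered deviations -0.302 to 0.349, and 3 of 24 arrays correlated best with their own number), and with the replicate block 4 member probes and 1747 probes in all were called. In HFepa against reference, all probes called were 60 by processed signal, 0 without a filter, 0 by the methods' t-test, 13 with only the compared groups and 0 to 496 with an array left out: 7, 0, 47, 78 and 496 without reference replicates 1, 2, 4, 7 and 8, and 3, 0, 256, 62, 0 and 3 without HFepa replicates 1, 2, 3, 4, 6 and 7. Companion genes called there were 1 with probes above background on all arrays, 1 with the replicate block and 0 to 7 with an array left out (7 without reference replicate 8, 2 without HFepa replicate 3, 1 without HFoleic replicate 3). In HFepa against HFoleic, 2 probes were called among those above background on all arrays, and 0 to 14 with an array left out (2 without reference replicate 7, 3 without reference replicate 8, 5, 8 and 2 without HFoleic replicates 5, 6 and 7, and 2, 14 and 2 without HFepa replicates 4, 5 and 7), with 0 or 1 companion gene, the 1 without HFoleic replicate 6. The members kept 0 calls in both of these comparisons throughout. Pairs of members called were 0 by processed signal and 0 to 2 with a mouse left out. Without reference replicate 3 or HFepa replicate 1 the Cdkn1b and Gadd45b pair missed the threshold (permutation adjusted p = 0.0619 and 0.0742), and without reference replicate 5 the pair of Cdkn1a and Gadd45b was added.

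Differences near 0 changed sign, none of them called. In HFoleic against reference these were Cdkn1b, at -0.0057, -0.0151 and -0.0021 without reference replicates 1 and 3 and HFoleic replicate 2 (range with an array left out -0.0151 to 0.0503), and Gadd45g, at 0.0003, 0.0203 and 0.0819 without reference replicate 3 and HFoleic replicates 2 and 8 (-0.366 to 0.0819). In HFepa against reference this was Ccnd1, at 0.248 without reference replicate 5 (-0.2598 to 0.248). In HFepa against HFoleic these were Ccnd2 on its brightest probe, at -0.017 by processed signal, -0.0244 by normexp and -0.0024 without HFoleic replicate 1 (-0.0024 to 0.0613), and on another probe, at -0.0086, -0.0122 and -0.0038 without HFoleic replicates 1 and 5 and HFepa replicate 7 (-0.0122 to 0.0633). Ccne1 was at 0.0285 without HFepa replicate 3 (-0.1387 to 0.0285), and the second Cdkn1b probe at -0.0143 by processed signal, -0.0185 by normexp and -0.0047 without HFoleic replicate 6 (-0.0047 to 0.1076). Ccnd1 gained a call in HFoleic against reference without reference replicate 5, at 0.80. Except where given, the cause was not tested.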
